A study of Sus scrofa with 12 samples.

Results

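The genes described here are 6 genes of ovarian steroid production: *STAR*, *CYP11A1*, *FDXR*, *HSD3B1*, *HSD17B1* and *CYP19A1*. Their members on the array were all probe sets, groups of short probes read as 1 value, whose platform annotation gave exactly 1 of these symbols. The rule found 13 probe sets for the 6 genes, out of 23999 probe sets tested and 6765 genes named by a single symbol. *CYP11A1* and *HSD17B1* had 1 probe set each, *HSD3B1* and *STAR* had 2, *FDXR* had 3 and *CYP19A1* had 4. No filter on dim probe sets was applied, so all 13 were tested. Where a gene had several probe sets, they are called here by the ending of their array identifier (S1_at, A1_at, x_at and so on) or by their brightness, and the plots give the identifiers whole.

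RNA of pig cells was measured on the Affymetrix porcine genome array, with 3 arrays in each of 4 groups. GC were granulosa cells from ovarian follicles, and DFOG were such cells that had dedifferentiated in culture and reached semiconfluence. MA were mature adipocytes from fat tissue, and DFAT were adipocytes dedifferentiated in ceiling culture, where buoyant adipocytes stick to the top wall of a filled flask, and likewise grown to semiconfluence. No group carried a transgene or a treatment by its labels, and the sources used here give no breed, age, oestrous stage, follicle size or days in culture. The labels call the arrays biological replicates without naming animals or cultures, so p-values reflect how these arrays varied, which can include technical variation. The arrays DFOG 2 and DFOG 3 stood apart from every other replicate pair: the SD of their probe set differences was 0.07, against 0.31 to 0.62 in the other 11 pairs. They were counted as 1 sample by their mean, which leaves n = 2 for DFOG and n = 3 for GC, MA and DFAT. Any analysis without DFOG 1 had 1 DFOG sample left, so lost calls and lower counts there can reflect the smaller group. All values are log2 expression levels, and a difference of 1 is a 2-fold difference.

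Granulosa cells make oestradiol for the follicle and, once they become luteal cells, large amounts of progesterone. Steroid production starts when the carrier STAR moves cholesterol into mitochondria, where the side-chain cleavage enzyme CYP11A1 turns it into pregnenolone with electrons passed on from ferredoxin reductase, FDXR, through ferredoxin. HSD3B1 oxidises pregnenolone to progesterone. In the oestrogen branch, androgens delivered by theca cells are converted to oestrogens by aromatase, CYP19A1, and HSD17B1 reduces oestrone to the more active oestradiol. The pig, unlike most mammals, carries several aromatase genes beside each other.

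In granulosa culture *HSD3B1* of the progesterone branch and *HSD17B1* of the oestradiol branch moved apart. *CYP11A1* and *FDXR*, which both serve the step from cholesterol to pregnenolone, also parted. *HSD3B1* was 58.8-fold higher in DFOG than in GC and *CYP11A1* was 4.95-fold higher, whereas *HSD17B1* was 338-fold lower and *FDXR* 18.4-fold lower, each by its probe set with the highest mean level. *STAR* and the probe sets assigned to *CYP19A1* alone stayed dim in every group. Of the 13 probe sets, 4 were called higher and 4 lower in DFOG than in GC (limma, Benjamini-Hochberg adjusted p under 0.05 over all probe sets). Over all 23999 probe sets, 12.3% were called higher and 12.6% lower. By 1 probe set per gene, 2 of the 6 genes were higher and 2 lower, beside 17.3% and 13.4% of all 6765 named genes. The median change of the 13 probe sets was -0.30, against -0.02 for all probe sets.

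The same step in fat cells gave another picture. Between DFAT and MA, 3 of the 13 probe sets were called lower and none higher (the same limma test), beside 16.4% and 15.7% of all probe sets, and the counts for genes were 1 and 0 of 6 beside 20.4% and 20.7% of all named genes. At an unadjusted p under 0.05 the count of member probe sets higher in DFAT was also 0. The lower probe sets were both of *HSD3B1* and 1 of *CYP19A1*. The change in granulosa culture less that in fat cell culture, tested as an interaction, was called higher for 4 and lower for 4 of the 13, beside 11.7% and 11.6% of all probe sets.

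**Figure D1:**
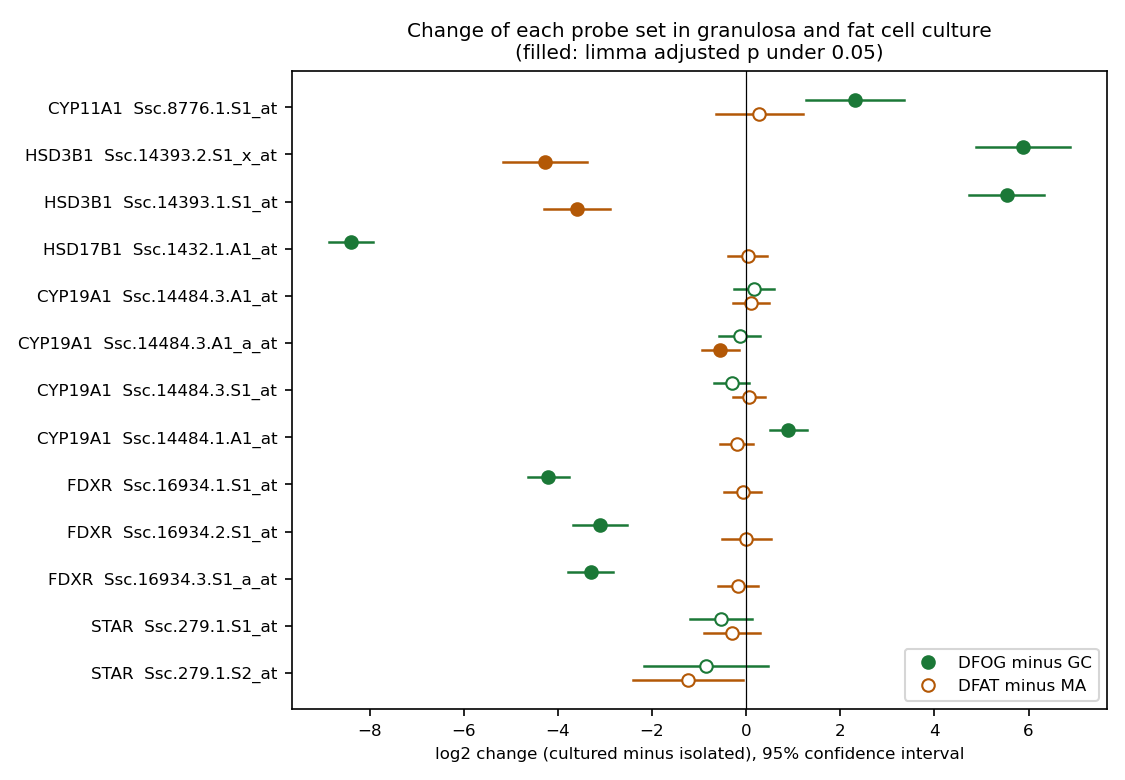
Log2 change of each of the 13 probe sets, with 95% confidence intervals, for DFOG minus GC (green) and DFAT minus MA (brown); filled points passed limma at an adjusted p under 0.05. The HSD3B1 probe sets lie at 5.54 and 5.88 in green and at -3.59 and -4.27 in brown, while HSD17B1 lies at -8.40 in green and 0.03 in brown.

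*STAR*, whose product delivers cholesterol to the inner mitochondrial membrane, had no called difference in either culture. Its S1_at probe set read 4.38, 5.39 and 4.56 in GC 1 to 3, 4.35, 4.14 and 4.10 in DFOG 1 to 3, 4.67, 4.62 and 5.12 in MA 1 to 3 and 4.82, 4.44 and 4.24 in DFAT 1 to 3. The groups were close, and DFOG was lower than each GC array. The difference between DFOG and GC was -0.54 ± 0.30 (SE; 95% confidence interval -1.20 to 0.12, limma adjusted p = 0.242). The other, S2_at, read 4.02, 6.22 and 3.87 in GC and 3.83, 3.78 and 3.96 in DFOG. Array GC 2 was the highest of the 12 arrays in both probe sets, and the ranges of GC and DFOG overlapped in the second. Its difference was -0.85 ± 0.60 (interval -2.17 to 0.46, limma adjusted p = 0.371). In fat cells this probe set read 4.53, 5.04 and 5.75 in MA and 3.75, 4.23 and 3.63 in DFAT, with no overlap. The difference of -1.23 ± 0.53 missed the threshold with all samples (limma adjusted p = 0.106) and passed it without GC 2, which adds to the shared estimate of the spread (adjusted p = 0.00786), or with MA and DFAT fitted alone (adjusted p = 0.0206).

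*CYP11A1*, the enzyme that commits cholesterol to steroids, was already high in GC and higher in DFOG. Its probe set read 9.28, 7.74 and 9.16 in GC 1 to 3 and 11.33, 10.74 and 10.74 in DFOG 1 to 3. All DFOG arrays were above all GC arrays, and GC 2 was the lowest granulosa array. The mean went from 8.73 ± 0.85 (SD, n = 3) to 11.03 ± 0.42 (n = 2), a rise of 2.31 ± 0.47 (SE; 95% confidence interval 1.27 to 3.35, limma adjusted p = 0.00398). Without DFOG 1, which leaves 1 DFOG sample, the difference was 2.01 and missed the threshold.

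The adipose cells had little *CYP11A1* signal in either state. Values were 4.77, 4.15 and 3.56 in MA and 4.05, 4.82 and 4.46 in DFAT, ranges that overlap, and DFAT differed from MA by 0.28 ± 0.42 (limma adjusted p = 0.671). The rise in granulosa culture exceeded the difference in fat cell culture by 2.03 ± 0.63 (limma adjusted p = 0.0393). This interaction missed the threshold in 8 of 20 alternative analyses. Among them were those without GC 2 (1.53, limma adjusted p = 0.0550), MA 1 (1.72, adjusted p = 0.0820), MA 2, DFAT 1 or DFAT 3. Another was that without DFOG 1 (1.73), which leaves 1 DFOG sample. The other settings were renewed quantile normalization (1.87, limma adjusted p = 0.0553) and centring on spiked-in poly-A controls (0.81, adjusted p = 0.229).

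*FDXR*, the reductase that feeds electrons to mitochondrial P450 enzymes such as CYP11A1, fell in granulosa culture while *CYP11A1* rose. Its brightest probe set read 11.24, 11.35 and 11.21 in GC and 6.91, 7.23 and 7.21 in DFOG. The groups were far apart, and the 3 GC arrays lay close to one another. The fall was 4.20 ± 0.19 on the log2 scale (fitted difference -4.20, 95% confidence interval -4.63 to -3.77, limma adjusted p = 9.3e-08). The other probe sets moved the same way, 1 ending in S1_at from 9.33 ± 0.46 to 6.24 ± 0.07 (difference -3.10 ± 0.26) and 1 ending in S1_a_at from 9.16 ± 0.36 to 5.85 ± 0.18 (difference -3.30 ± 0.22), with limma adjusted p-values of 7.32e-06 and 1.19e-06.

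In the adipose cells *FDXR* was close to its level in DFOG. The brightest probe set read 6.37, 6.74 and 6.97 in MA and 6.65, 6.51 and 6.70 in DFAT, overlapping ranges, and the difference between DFAT and MA was -0.08, 0.01 and -0.17 by the 3 probe sets in the order above, none called. The interaction was called for all 3, at -4.12 ± 0.26, -3.10 ± 0.35 and -3.14 ± 0.29 (limma adjusted p of 1.67e-06, 8.92e-05 and 2.38e-05).

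*HSD3B1*, which makes progesterone from pregnenolone, had the largest rise of the 6 genes in granulosa culture. Its S1_x_at probe set read 6.25, 5.60 and 5.99 in GC and 11.48, 12.18 and 12.16 in DFOG. No GC array came near a DFOG array. The mean rose from 5.95 ± 0.33 (SD, n = 3) to 11.82 ± 0.48 (n = 2), by 5.88 ± 0.46 (SE; interval 4.88 to 6.88, limma adjusted p = 4.02e-06). This was the 51st highest change of 23999 probe sets. The second probe set, S1_at, read 5.34, 5.14 and 5.54 in GC and 11.37, 10.39 and 10.37 in DFOG. Its rise was 5.54 ± 0.36, or 46.4-fold (limma adjusted p = 1.08e-06), the 72nd highest. The suffix of the first, x_at, is the maker's mark for probes that may also bind other transcripts, while the second carries no such mark.

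In fat cells *HSD3B1* went the other way. Mature adipocytes read 8.96, 10.36 and 10.44 and DFAT 6.09, 5.01 and 5.86 on S1_x_at, so that every MA array was above every DFAT array. The fall was 4.27 ± 0.41 on the log2 scale (fitted difference -4.27, 95% confidence interval -5.16 to -3.37, 19.2-fold, limma adjusted p = 1.2e-05). S1_at went from 8.95 ± 0.62 to 5.36 ± 0.24 (n = 3 each), a difference of -3.59 ± 0.32 (limma adjusted p = 7.43e-06). The change in granulosa culture exceeded that in fat cell culture by 10.14 ± 0.61 and 9.13 ± 0.48 by the 2 probe sets (limma adjusted p = 1.19e-06 and 5.52e-07).

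The order of the groups for *HSD3B1* was therefore DFOG, MA, and then GC and DFAT together. DFOG was above MA by 1.90 on S1_x_at (limma adjusted p = 0.00716) and by 1.93 on S1_at (limma adjusted p = 0.00156), with no overlap. GC and DFAT overlapped on both, with differences of 0.29 and 0.02 (limma adjusted p = 0.655 and 0.977).

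*HSD17B1*, which forms oestradiol from oestrone, had among the strongest losses on the array. Its probe set read 13.48, 14.09 and 13.58 in GC 1 to 3 and 5.32, 5.28 and 5.35 in DFOG 1 to 3. In MA it read 5.43, 5.38 and 5.47, and in DFAT 5.58, 5.61 and 5.18. Signal was high in GC alone, and the other 9 arrays lay between 5.18 and 5.61. The mean went from 13.72 ± 0.33 (SD, n = 3) to 5.32 ± 0.0040 (n = 2), a difference of -8.40 ± 0.21 (SE; 95% confidence interval -8.86 to -7.94, limma adjusted p = 1.73e-09), the 5th lowest of 23999. DFAT and MA differed by 0.03 ± 0.19 (limma adjusted p = 0.922), and the interaction was -8.43 ± 0.28 (limma adjusted p = 2.97e-08). DFAT, MA and DFOG followed GC in this order, with neighbouring differences of 0.03 and 0.11 that were not called (limma adjusted p of 0.922 and 0.752).

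The 4 probe sets annotated to *CYP19A1* alone gave no sign of the aromatase signal that a granulosa cell is known for. Their values lay between 2.96 and 5.47 on all 12 arrays, GC included. The brightest, ending in A1_at, read 4.84, 5.12 and 4.89 in GC and 5.17, 5.07 and 5.05 in DFOG, and the difference was 0.17 ± 0.19 (SE; interval -0.26 to 0.59, limma adjusted p = 0.633). A1_a_at and S1_at differed by -0.14 (interval -0.58 to 0.30) and -0.30 (interval -0.67 to 0.07) between DFOG and GC, neither called (limma adjusted p = 0.712 and 0.247).

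The dimmest of them, which also ends in A1_at, was called. It read 2.96, 3.18 and 3.14 in GC, 3.87, 4.13 and 4.09 in DFOG, 3.45, 3.13 and 3.50 in MA and 3.19, 3.02 and 3.28 in DFAT. DFOG was above all other arrays, by a small amount at the dim end of the scale. Its rise was 0.90 ± 0.18 (limma adjusted p = 0.00322) and its interaction 1.09 ± 0.24 (limma adjusted p = 0.00633). When arrays were centred on the spiked-in poly-A control probe sets, the difference was 0.23 (limma adjusted p = 0.525) and the interaction -0.12. In fat cells A1_a_at went from 5.19 ± 0.26 in MA to 4.64 ± 0.25 in DFAT (difference -0.55 ± 0.18, limma adjusted p = 0.0347), a call that held in 12 of 20 alternatives.

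The array holds 9 more aromatase probe sets outside the rule, 8 annotated to *CYP19A3* and 1, the shared probe set, to *CYP19A3*, *CYP19A2* and *CYP19A1* together. They were singled out after their values were seen. The 3 pig aromatase genes follow each other directly in the RefSeq gene order of Sscrofa11.1, and their transcripts are known to be close copies, so these probe sets cannot assign the signal to 1 of the genes.

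The shared probe set read 13.41, 13.13 and 12.29 in GC 1 to 3 and 4.51, 4.27 and 4.32 in DFOG 1 to 3. In MA it read 4.02, 4.23 and 4.43, and in DFAT 3.96, 4.06 and 3.71. As with *HSD17B1*, GC stood alone and the other groups were dim. The mean went from 12.94 ± 0.58 to 4.40 ± 0.15, a difference of -8.54 ± 0.29 (SE; 95% confidence interval -9.17 to -7.91, 372-fold, limma adjusted p = 1.52e-08), the 4th lowest of all probe sets. Its interaction was -8.22 ± 0.39 (limma adjusted p = 2.65e-07).

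The *CYP19A3* probe set that was brightest in GC read 13.30, 13.82 and 12.74 there and no more than 4.04 on any DFOG array. Its difference of -9.26 ± 0.33 (613-fold, limma adjusted p = 1.99e-08) was the 2nd lowest on the array. The next brightest in GC went from 11.11 ± 1.06 to 3.28 ± 0.11 (difference -7.83 ± 0.46). The one after it, ending in S1_s_at, went from a mean of 9.62 to 6.49 (difference -3.13 ± 0.45), and both were called. The other 5 *CYP19A3* probe sets behaved differently: the x_at probe set was dim and fell by 0.87 (fitted difference -0.87, limma adjusted p = 0.0167), 3 were dim everywhere and not called, and 1 was well above these in all groups, from 8.97 in GC to 9.64 in MA. This last one differed by 0.40 between DFOG and GC (limma adjusted p = 0.206) and was called lower in GC than in MA, by -0.68 (limma adjusted p = 0.0131). The call of the x_at probe set was lost with GC and DFOG fitted alone (limma adjusted p = 0.0507). It was also lost without DFOG 1 (-0.88), which leaves 1 DFOG sample. Of the 13 aromatase probe sets, 5 thus fell in granulosa culture, none of them annotated to *CYP19A1* alone.

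**Figure D2:**
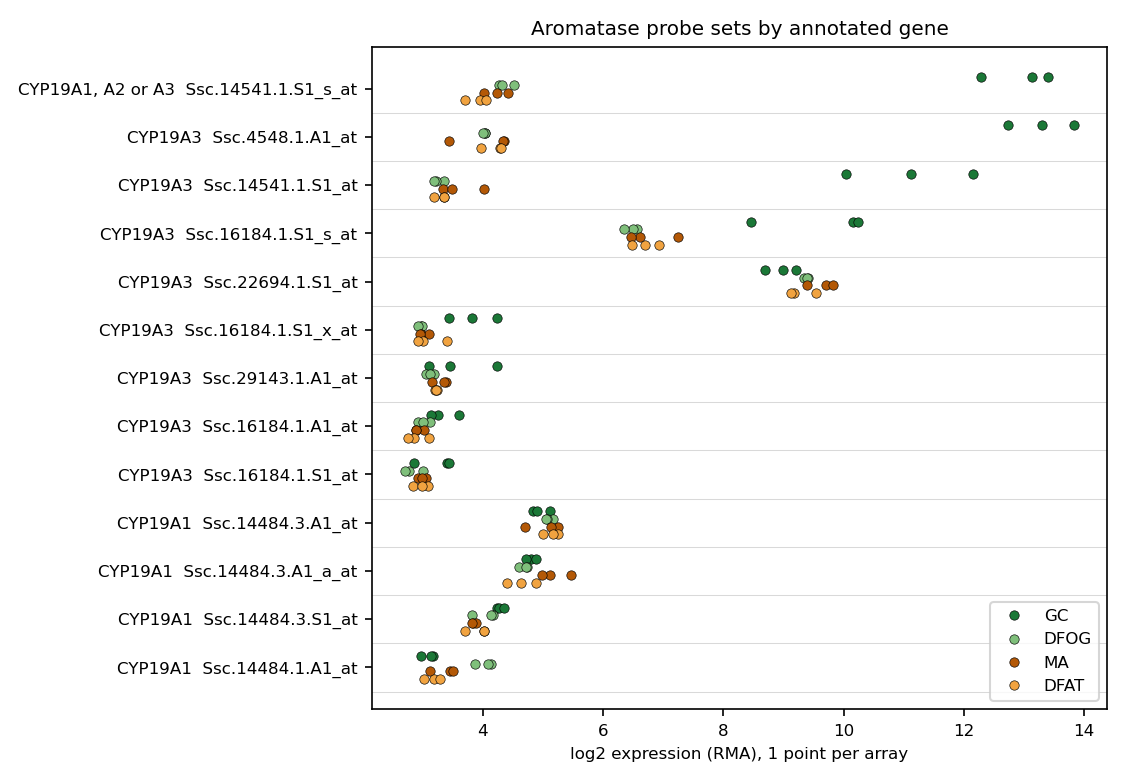
Log2 expression of the 13 aromatase probe sets, 1 point per array, by annotated gene and coloured by group (GC, DFOG, MA, DFAT). GC points of the shared probe set lie at 12.29 to 13.41 and those of the brightest CYP19A3 probe set at 12.74 to 13.82, while the 4 CYP19A1 probe sets stay at or below 5.47 in all groups.

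Set side by side, the progesterone and oestradiol enzymes parted by 14.28 log2 units in granulosa culture, the rise of *HSD3B1* (5.88) less the change of *HSD17B1* (-8.40). With the other *HSD3B1* probe set it was 13.94. The within-group SD of the difference between the 2 probe sets was 0.58 over 5 samples. This is a description, as the pair was chosen with the results known. GC therefore had high *HSD17B1* and aromatase signal with low *HSD3B1*, and DFOG the reverse, with *CYP11A1* present in both. *FDXR*, which serves CYP11A1, fell as *HSD17B1* did. *STAR* was dim in all groups, so its probe sets cannot show whether it went with either branch. As bulk RNA was measured, fewer cells of a type and less RNA per cell cannot be told apart, nor can dedifferentiation from any other effect of being in culture.

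**Figure D3:**
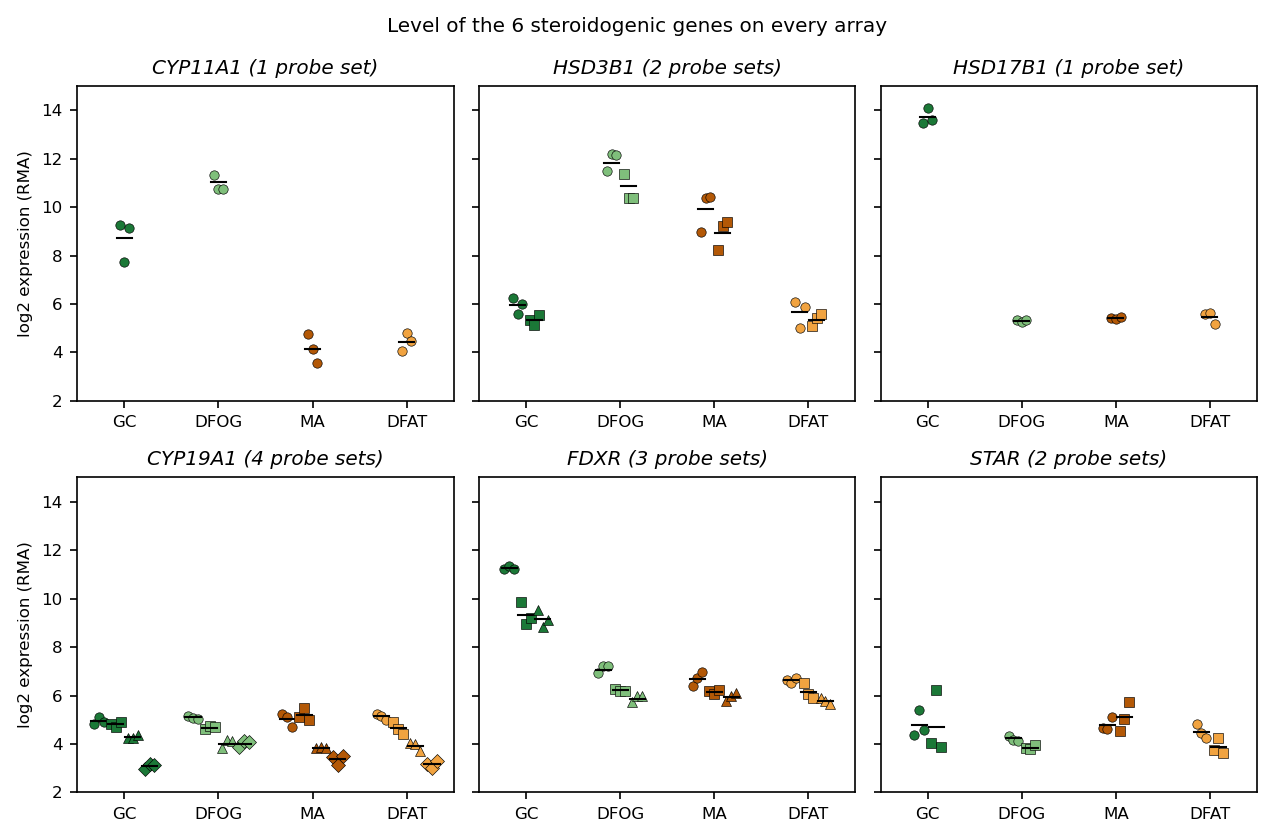
Log2 expression of the 6 genes on each of the 12 arrays, 1 panel per gene, with marker shapes for different probe sets of a gene and horizontal bars for group means (DFOG 2 and 3 counted as 1 sample). HSD3B1 is high in DFOG and MA, HSD17B1 and FDXR are high in GC, CYP11A1 is high in GC (8.73) and DFOG (11.03), and CYP19A1 and STAR are dim in all groups.

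Between the isolated cells, GC exceeded MA in 6 of the 13 probe sets and was lower in 2, beside 19.7% and 20.7% of all probe sets. *HSD17B1* was higher in GC by 8.29 (limma adjusted p = 5.01e-10), *CYP11A1* by 4.56 (adjusted p = 6.11e-06) and the *FDXR* probe sets by 4.57, 3.18 and 3.21, all called. The S1_at probe set of *CYP19A1* was higher by 0.43 (adjusted p = 0.0414), a call that held in 12 of 20 alternatives. Both *HSD3B1* probe sets were lower in GC than in MA, by -3.97 and -3.61. Between the cultured cells, DFOG exceeded DFAT in 4 of 13 and was lower in 0, beside 4.31% and 3.7% of all probe sets. At an unadjusted p under 0.05 the number lower was also 0. *CYP11A1* was higher in DFOG by 6.59 ± 0.47 (96.3-fold, limma adjusted p = 6.65e-06), *HSD3B1* by 6.17 ± 0.46 and 5.52 ± 0.36, and the dimmest *CYP19A1* probe set by 0.83 ± 0.18. *HSD17B1* and *FDXR* did not pass the test there, with differences of -0.14 ± 0.21 for the former and 0.45 ± 0.19 for the brightest probe set of the latter. The call of the dimmest *CYP19A1* probe set between DFOG and DFAT was lost with poly-A centring (limma adjusted p = 0.240) and with DFOG and DFAT fitted alone (adjusted p = 0.0746). *CYP11A1* was thus higher in the granulosa cells in both states, whereas *HSD3B1* was lower in GC than in MA and higher in DFOG than in DFAT.

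The partner genes of the pathway were read from lists, with 1 probe set per gene. Beside the list counts, 17.3% of all named genes were called higher and 13.4% lower in DFOG against GC. In DFAT against MA the shares were 20.7% higher and 20.4% lower. Of 12 genes of cholesterol delivery, 8 were measured, and in DFOG against GC 3 were higher and 2 lower (median change 0.31, against 0.03 for all named genes). *NPC2*, which binds cholesterol in lysosomes, was higher by 2.38 ± 0.19 (limma adjusted p = 4.6e-06), although its other probe sets went from 10.21 to 9.78 and from 5.61 to 5.56. *TSPO*, a protein of the outer mitochondrial membrane, was higher by 1.05 ± 0.30 (adjusted p = 0.0228) and the mitochondrial channel *VDAC1* by 0.94 ± 0.17 (adjusted p = 0.00178), and neither was called with poly-A centring. *TSPO* also missed the threshold without GC 1 (limma adjusted p = 0.0583) and without DFOG 1 (1.06), which leaves 1 DFOG sample. The same held with the actin 3′ minus 5′ difference, a measure of RNA breakdown, as a covariate (adjusted p = 0.0521). The lipoprotein receptor *SCARB1*, which takes up cholesterol esters, fell from 10.84 ± 0.49 to 8.90 ± 0.18 (difference -1.94 ± 0.29, limma adjusted p = 5.22e-04). The lysosomal cholesterol exporter *NPC1* was lower by -1.84 ± 0.22 in granulosa culture and by -2.33 ± 0.20 in fat cell culture. In DFAT against MA, limma called 0 genes of this list higher and 4 lower (1 and 4 at an unadjusted p under 0.05), with a median of -0.51, against -0.02 for all named genes.

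The electron donors mostly fell with *FDXR*. Of 7 listed genes 4 were measured, and 3 were lower and 1 higher in DFOG (median change -1.85). *FDX1*, the ferredoxin that carries electrons from FDXR to CYP11A1, read 12.18 ± 0.19 in GC and 9.79, 9.81 and 9.77 in DFOG 1 to 3. The difference was -2.40 ± 0.20 (limma adjusted p = 6.48e-06). *POR*, the reductase that serves aromatase and other microsomal P450 enzymes, was lower by -2.98 ± 0.37 (adjusted p = 1.43e-04) and its helper *CYB5A* by -1.30 ± 0.18 (adjusted p = 2.69e-04). *CYB5R1* was higher by 1.16 ± 0.20 (adjusted p = 0.00162), and by 0.50 with poly-A centring, where it missed the threshold. In fat cells limma called 2 of the 4 lower and 0 higher, or 3 and 0 at an unadjusted p under 0.05 (median -0.81): *FDX1* by -1.14 ± 0.18 and *CYB5A* by -1.92 ± 0.16. The change in granulosa culture less that in fat cells was -1.26 for *FDX1* (limma adjusted p = 0.00552) and -2.69 for *POR* (limma adjusted p = 0.00256).

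Other steroid-converting enzymes numbered 12 measured of 23 listed, and limma called 0 higher and 3 lower in DFOG than in GC (median -0.13), or 1 and 4 at an unadjusted p under 0.05. They were *HSD11B1*, the cortisol-regenerating enzyme (-1.97 ± 0.61, limma adjusted p = 0.0352), *HSD17B8* (-1.69 ± 0.23, adjusted p = 2.87e-04) and the peroxisomal enzyme *HSD17B4* (-0.92 ± 0.18, adjusted p = 0.00270). *HSD11B1* missed the threshold without GC 2, GC 3 or MA 3 (limma adjusted p from 0.0507 to 0.0921). It also did so without DFOG 1 (-1.47), which leaves 1 DFOG sample. With the actin covariate its difference was -0.74 (adjusted p = 0.483). In DFAT against MA, limma called 6 of the 12 lower and 0 higher (the same counts unadjusted, median -0.65), the same 3 among them, with -2.87, -1.92 and -2.48. *CYP17A1*, the theca enzyme that makes androgens, was dim, at 4.81 ± 0.17 in GC and 5.20 ± 0.28 in DFOG, and not called. Of genes for steroid inactivation, 4 of 9 were measured, and *SULT1E1*, which sulfates oestrogens, was the 1 called in DFOG (-0.91 ± 0.26, limma adjusted p = 0.0260). It was not called with GC and DFOG fitted alone (limma adjusted p = 0.0912) or without DFOG 1 (-0.81), which leaves 1 DFOG sample. The list's median was 0.08, and in fat cells 1 of the 4 was higher and 1 lower (median -0.45).

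**Figure D4:**
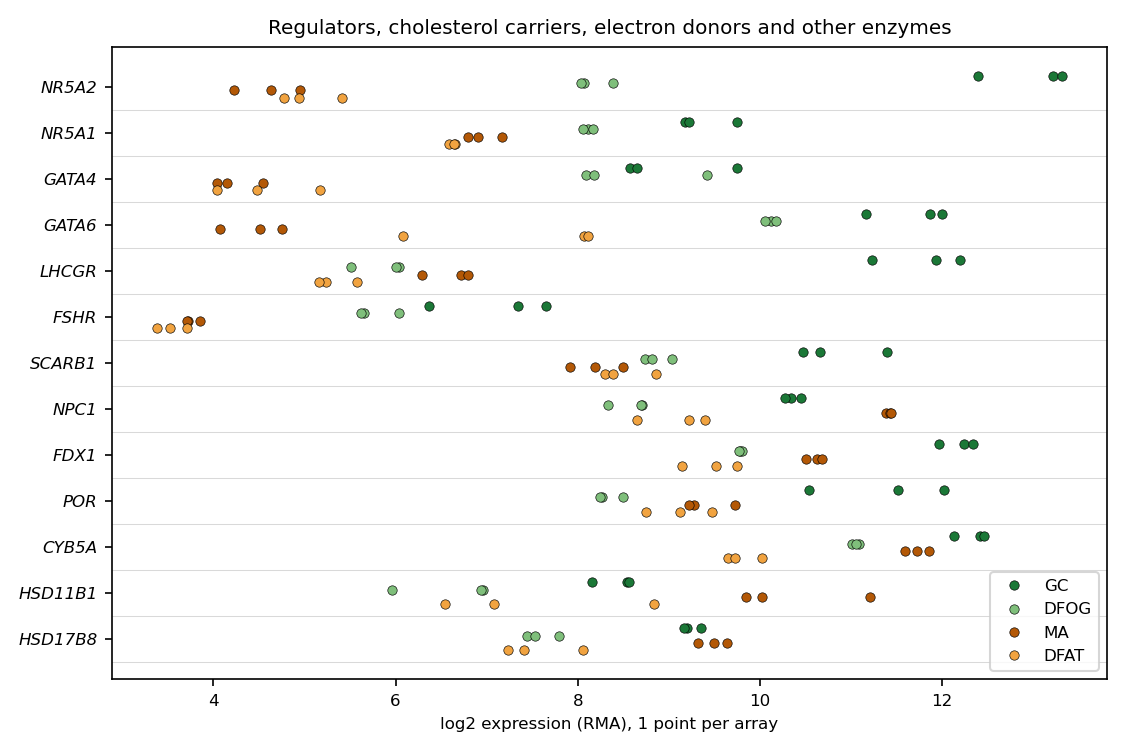
Log2 expression of 13 partner genes of the pathway, 1 point per array, coloured by group (GC, DFOG, MA, DFAT). LHCGR, NR5A2, POR and FDX1 are highest in GC and lower in DFOG, while GATA4 lies at 8.99 in GC and 8.78 in DFOG and at 4.24 and 4.56 in MA and DFAT.

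Among regulators and hormone receptors, 16 of 20 were measured, and 7 were lower and 1 higher in DFOG than in GC (median -0.25). The luteinising hormone receptor *LHCGR* fell the most of the list, from 11.79 ± 0.50 to 5.77 ± 0.36 (difference -6.02 ± 0.29, limma adjusted p = 1.26e-07). *NR5A2*, a nuclear receptor that drives steroid enzyme genes in granulosa cells, went from 12.97 ± 0.51 to 8.22 ± 0.24 (difference -4.75 ± 0.31, adjusted p = 1.19e-06), and its relative *NR5A1* was lower by -1.27 ± 0.20 (adjusted p = 7.16e-04). The other *NR5A1* probe set went from 7.15 to 6.89 and was not called (adjusted p = 0.674). By their brightest probe sets both were higher in DFOG than in DFAT, *NR5A2* by 3.18 (adjusted p = 6.61e-05) and *NR5A1* by 1.48 (adjusted p = 6.26e-04). The follicle-stimulating hormone receptor *FSHR* was lower by -1.28 ± 0.31 (adjusted p = 0.0116), a call lost with GC and DFOG fitted alone (adjusted p = 0.0624).

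The other calls of this list were lost in more settings. The oestrogen receptor *ESR1* was lower by -2.29 ± 0.71 (limma adjusted p = 0.0368), the progesterone receptor *PGR* by -1.18 ± 0.32 (adjusted p = 0.0201) and the transcription factor *GATA6* by -1.56 ± 0.52 (adjusted p = 0.0497), and *CREM*, a factor of the cyclic AMP response, was higher by 0.59 ± 0.17 (adjusted p = 0.0283). The probe sets of *CREM* disagreed: one of the other 3 was called lower, by -1.02 ± 0.22 (limma adjusted p = 0.00501), and the rest differed by -0.88 and 0.42 and were not called. Without DFOG 1, which leaves 1 DFOG sample, none of these 4 passed the threshold. Their differences were then -2.40, -1.10, -1.56 and 0.59 in the order above. *PGR* also missed it without GC 2, *CREM* without GC 1 or GC 3, and *GATA6* without any single GC or MA array or DFOG 3. *ESR1* missed it with GC and DFOG fitted alone (adjusted p = 0.105). With the actin covariate *PGR* differed by -0.71 (adjusted p = 0.262), and *CREM* and *GATA6* were not called (adjusted p = 0.147 and 0.128). *CREM* was -0.073 with poly-A centring. *GATA4*, which acts with these factors in the gonad, differed by -0.21 ± 0.45 (adjusted p = 0.820). In fat cells 1 gene of the list was higher, *GATA6* (2.98 ± 0.47), and 4 were lower (median -0.26).

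Marker lists were read beside these changes, with the same shares of all named genes as background. All 8 granulosa markers were measured, and their mean level ranged from 9.38 to 9.96 over the GC arrays, from 6.36 to 6.56 in DFOG, and from 5.41 to 5.83 in MA and DFAT together. In DFOG 6 of the 8 were lower, among them the inhibin subunit *INHA* (14.64 to 7.44) and the activin-binding protein *FST* (13.73 to 8.55), while *FOXL2* was dim in all groups, at 5.56 in GC. The granulosa markers thus fell together with *HSD17B1* and *FDXR*, and *CYP11A1* and *HSD3B1* did not follow them. Their part in the result was not tested. Of 5 theca markers 4 were measured, and limma called 0 higher and 1 lower in DFOG. The lower one, *INSL3*, went from 8.84 ± 0.77 to 5.83 ± 0.20 (difference -3.01 ± 0.34, limma adjusted p = 6.64e-05). *NR2F2* read 9.78 in GC and 9.47 in DFOG (limma adjusted p = 0.310), *GLI1* read 3.67 and 3.65 (adjusted p = 0.967), and *CYP17A1* was dim. The mean of the list, *INSL3* included, ranged from 6.47 to 6.97 in GC and from 5.92 to 6.15 in DFOG. All 5 luteal markers were measured and 2 were lower, *LHCGR* and *SCARB1*, which stand in the pathway lists too. Oxytocin, *OXT*, a luteal product, read 6.57 in GC and 6.67 in DFOG, and much the same in the adipose cells (6.68 in MA, 6.58 in DFAT).

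Cells of blood and fat were checked in the same way. Of 9 macrophage markers 6 were measured, limma called 0 higher or lower in DFOG against GC (0 also at an unadjusted p under 0.05), and their mean lay between 3.93 and 4.25 in both. In DFAT all 6 were lower than in MA, with a mean of 3.97 to 4.06 against 5.70 to 6.85. Of 7 endothelial markers 6 were measured, and 3 were lower in DFAT by the brightest probe set of each gene. The endothelial genes *VWF* and *TEK* were not among these, but each had a dimmer probe set that was called lower. It went from 6.51 in MA to 4.51 in DFAT for *VWF* (limma adjusted p = 1.66e-04). For *TEK* it went from 4.87 to 3.05 (adjusted p = 0.00768). The other probe sets of both genes were not called. *HSD3B1* fell in the same comparison, and the part of macrophage and endothelial cells in the result was not tested. In DFOG against GC, 1 of the 6 endothelial markers, *PECAM1*, was higher by 1.77 ± 0.33, while its other probe set differed by 0.90 and was not called (limma adjusted p = 0.0550). The 5 measured adipocyte markers of 7 averaged 12.71 to 12.75 in MA, 6.57 to 8.05 in DFAT, 5.24 to 5.53 in GC and 5.54 to 5.60 in DFOG. Of these, *FABP4* was called higher in DFOG than in GC (2.31 ± 0.40, limma adjusted p = 0.00146). Of 5 oocyte markers 3 were measured and 1, *GDF9*, was lower in DFOG (-1.80 ± 0.18).

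RNA control values moved with the culture step as well. The actin 3′ minus 5′ difference, which grows with RNA breakdown, was 1.35 ± 0.55 in GC against 0.39 ± 0.33 in DFOG, and 1.88 ± 0.52 in MA against 0.61 ± 0.33 in DFAT. With this difference as a covariate, *CYP11A1*, *HSD3B1*, *HSD17B1* and *FDXR* kept their direction and call between DFOG and GC. The calls of *HSD11B1*, *PGR*, *CREM*, *GATA6* and *TSPO* were lost with it, as given above. The poly-A control probe sets averaged 6.45 ± 0.25 in GC, 7.12 ± 0.02 in DFOG, 7.62 ± 0.16 in MA and 7.06 ± 0.37 in DFAT. Centring on them moved the median of all probe sets between DFOG and GC to -0.68 and the calls to 1207 higher and 7875 lower, from 2958 and 3013. Relative to that median, the members' differences between DFOG and GC stayed as given, and *HSD3B1*, *CYP11A1*, *HSD17B1* and *FDXR* kept their calls there. The interaction of *CYP11A1* was not called with this centring (0.81, limma adjusted p = 0.229). The same centring gave 6602 higher and 1516 lower between DFAT and MA, 844 and 13853 for the interaction, and 18030 and 1372 between GC and MA.

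For each gene, the 5 named genes most like it in level over the 11 samples were taken by Pearson correlation, as a description. Nearest to *HSD17B1* were *GSTA1*, *DAPL1*, *ACSL6*, *MOBP* and *INHA* (r from 0.998 to 0.994), and nearest to *FDXR* were *DAPL1*, *RNASE1*, *ACSL6*, *DDIT4L* and *INHA* (r from 0.997 to 0.992). The shared aromatase probe set had *DAPL1*, *ACSL6*, *GSTA1*, *INHA* and *DDIT4L* (r from 0.998 to 0.995). In all these the 3 GC samples are high and the rest low, so the correlation mostly reflects that 1 contrast. *CYP11A1* was nearest to *PRCP*, *NCALD*, *SATB1*, *PERP* and *CXADR* (r from 0.984 to 0.959), in which GC and DFOG are both above the adipose cells. For *HSD3B1*, high in DFOG and MA, the nearest were *CTSC*, *B4GALT5*, *AVPI1*, *CRLS1* and *KITLG* (r from 0.934 to 0.875). The dim *CYP19A1* and *STAR* probe sets had *PRKAG3* (r = 0.944) and *RING1* (r = 0.807) at the top, followed by *FBXL16*, *MBL2*, *SERPIND1* and *TSPAN5* for the former and *TNF*, *IGSF1*, *TCEAL2* and *PGA5* for the latter.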

How the data were processed

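Expression was measured on 12 porcine arrays. The deposited values are log2 expression levels made with RMA (background correction, quantile normalization and probe summary), per the submitters' processing notes, which give no version, and the array's chip definition and genome build are not given in the sources used here. Such values carry no read depth, and the number of arrays limits the precision. From the table of 24123 probe sets, 124 Affymetrix controls were left out. Probe sets were named through the platform annotation (10069 with 1 symbol, 198 with several, 13732 with none), and all 13 member probe sets gave the same symbol through RefSeq. limma 3.58.1 in R 4.3.3 was fitted with 1 mean per group over 11 samples (7 residual degrees of freedom), two-sided, with Benjamini-Hochberg adjustment over 23999 probe sets and a threshold of 0.05, and was tested on simulated data. Confidence intervals are 95% intervals of that fit.

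The members and lists were chosen with earlier results of these data known. Named from each list were up to 4 genes with the largest called change between DFOG and GC, plus those needed to explain small counts. *VDAC1*, *GATA4*, *FSHR*, *NR5A1*, *PGR*, *CREM*, *CYP17A1*, the named markers and the aromatase probe sets outside the rule were chosen after their values were seen. Each gene's probe set with the highest mean level stood for it in lists. Alternatives were no averaging of near-identical arrays, leaving out each array, a replicate block, renewed quantile normalization, poly-A centring, an actin covariate, a filter on dim probe sets, array weights, another variance prior and fits of 2 groups; the same were added for the lists and member counts after seeing the data. Promoter and protein sequences were not used here.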

Additional observations from a re-analysis of the deposited data

Results flagged for a closer look

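Member probe sets were singled out where their change in granulosa culture differed, by the limma interaction test, from that in fat cell culture. The values are the change from GC to DFOG less that from MA to DFAT. *HSD3B1* gave 10.14 ± 0.61 on the S1_x_at probe set (SE, adjusted p = 1.19e-06) and 9.13 ± 0.48 on S1_at (adjusted p = 5.52e-07), the only member that was called in opposite directions in the 2 cultures. *HSD17B1* gave -8.43 ± 0.28 (adjusted p = 2.97e-08) and the *FDXR* probe sets -4.12, -3.10 and -3.14 (adjusted p = 1.67e-06, 8.92e-05 and 2.38e-05), with no called change in fat cells. *CYP11A1* gave 2.03 ± 0.63 (adjusted p = 0.0393) and the dimmest *CYP19A1* probe set 1.09 ± 0.24 (adjusted p = 0.00633). The *CYP11A1* call held in 12 of 20 alternatives and was lost with poly-A centring (0.81).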

How the results depend on the processing

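Between DFOG and GC, the probe sets of *HSD3B1*, *HSD17B1* and *FDXR* kept direction and call in every alternative that gave a value (20 or 21 each). So did the shared aromatase probe set and the 2 *CYP19A3* probe sets brightest in GC. Several of these settings could not move the difference, so they are not independent checks of its direction. Leaving out an MA or DFAT array, the other variance prior and the fit of GC and DFOG alone change only its test. So does the filter on dim probe sets, which gave no value for *CYP19A1* or *STAR*. Leaving out DFOG 2 or DFOG 3 keeps its near-identical partner. Leaving out single arrays gave 1.82 to 2.58 for *CYP11A1*. It lost its call only without DFOG 1 (2.01), which leaves 1 DFOG sample. The 6 genes gave 4 calls also when averaged over their probe sets, and of 13 probe sets 3 to 4 were called higher and 4 to 6 lower. The count of all probe sets called, 5971, ranged from 3586 (without DFOG 1) to 6563 over left-out arrays and was 9082 with poly-A centring, which also gave 14697 for the interaction (5593) and 19402 for GC minus MA (9713). For DFOG minus DFAT (1921) it was 1103 to 2138 over left-out arrays, 1025 with only the 2 groups and 2947 with the replicate block.

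Poly-A centring put the S1_at probe set of *STAR* past the threshold between DFOG and GC (-1.21) and turned the sign there of the brightest *CYP19A1* probe set (-0.50), the *CYP19A3* probe set high in all groups (-0.26) and *CREM* (-0.073). It also turned *CYP19A1* A1_a_at between DFAT and MA (0.0016), the interactions of the dimmest (-0.12) and brightest (-1.16) *CYP19A1* probe sets, and GC minus MA for the dimmest (0.90), A1_a_at (0.78) and brightest (1.09) of *CYP19A1*, *STAR* S1_at (1.13) and S2_at (0.76), and the *CYP19A3* probe set high in all groups (0.48). The actin covariate turned the interaction of the brightest *CYP19A1* probe set (-0.0045) and its GC minus MA difference (0.024). GC minus MA of *STAR* S1_at turned with the actin covariate (0.024), renewed quantile normalization (0.022) and array weights (0.20). Over left-out arrays, signs also turned for the interactions of the brightest *CYP19A1* probe set (-0.061 to 0.22) and *STAR* S1_at (-0.44 to 0.068), and for GC minus MA of the former (-0.24 to 0.038), *STAR* S1_at (-0.33 to 0.17) and S2_at (-1.16 to 0.020), and a dim *CYP19A3* probe set (-0.023 to 0.54). A further 20 changes were called in no setting, and 16 of them changed sign in some. The cause was not tested.

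Same-numbered replicates correlated in their deviations from 0.36 to 0.60 between GC and DFOG and from 0.0999 to 0.17 between MA and DFAT. Unlike numbers gave -0.59 to 0.51 and -0.13 to -0.0025. As the labels name no animals or cultures and DFOG 2 and 3 were near-identical, the main fit did not pair the samples. Each of the 3 arrays of MA, DFAT and GC correlated best with its own number in the matching group, and 2 of 3 of DFOG did. For MA and DFAT this is a hint from the data and not the design. For GC and DFOG it says little, as DFOG 2 and 3 were near-identical. GC 3 gave 0.355 with DFOG 3 and 0.338 with DFOG 2. The replicate block was fitted on all 12 arrays, with DFOG 2 and 3 as separate samples. It changed no call of *CYP11A1*, *HSD3B1*, *HSD17B1* or *FDXR* between DFOG and GC.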
